A study of Mus musculus with 23 samples.

Results

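The FGF receptors, the Sprouty genes and Met were followed on mouse expression arrays from pluripotent stem cells to adult quadriceps muscle. The 9 genes are Fgfr1, Fgfr2, Fgfr3, Fgfr4, Fgfrl1, Met, Spry1, Spry2 and Spry4. They were taken by symbol, as every probe whose gene name in the scanner files was one of the 9, which gave 14 of 55681 probes and 9 of 21983 genes known to RefSeq. Fgfr1 had 3 probes, Fgfr2, Fgfr3 and Fgfr4 had 2 each, and the other genes 1 each.

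The study measured total RNA of male mice or male cell lines on 23 Agilent arrays of 1 colour, beside DNA methylation data that are not analysed here. There were 7 groups of 3 samples. The embryonic stem cell lines were cGR8 (129Sv), RD1 (129X1/SvJ) and E14tg2 (129/Ola), the last on 2 arrays that were averaged. Primary myoblasts came from C57BL/6J mice and were taken at passage 0, or while proliferating at passages 8 to 10, both in growth medium with 20% fetal bovine serum and 5 ng/ml bFGF on collagen. Myotubes were made from confluent proliferating myoblasts on Matrigel, in medium with 2% horse serum and no bFGF listed, for 1, 2 or 4 days. Quadriceps muscle came from 1 C57BL/6J mouse and from 2 mice of 129Sv/C57BL/6J background, and a single NOD/ShiLtj skeletal muscle sample entered no main comparison. Cell type and strain therefore change together between stem cells and myoblasts, and partly between cultures and quadriceps, and these cannot be told apart. Between proliferating myoblasts and myotubes, differentiation changes together with serum, listed bFGF and coating, which cannot be told apart either. The titles of proliferating myoblasts and myotubes share the culture numbers 21, 26 and 28, and the number 26 also stands in the title of passage 0 replicate 1, but nothing in the labels says whether a number marks an animal, so the p-values reflect only how far these samples differ within a group, which may be technical.

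FGF receptors are receptor tyrosine kinases that bind fibroblast growth factors together with heparan sulfate and signal through Ras and the MAP kinase ERK. In muscle precursors this pathway is known to favour proliferation and to hold back differentiation, and Fgfr1 and Fgfr4 are the receptors best known there. Fgfrl1 binds the same ligands but lacks the kinase domain. Met is the receptor of hepatocyte growth factor, which acts in the migration of muscle precursors into the limb and in the activation of satellite cells. Sprouty proteins are made in response to receptor signalling and restrain it in turn, and Spry1 is known in mouse muscle for its part in the return of satellite cells to quiescence.

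The probes decide what was measured, and those on which later results turn are shown here as the files give them, with positions on mouse build mm9. The pair for Fgfr2 lies at chr7:137307473-137307532 and chr7:137307455-137307514 on the minus strand, and capitals mark the 42 bases that the probes share. They are shown because the probes gave different readings of the gene.
Fgfr2 probe 1: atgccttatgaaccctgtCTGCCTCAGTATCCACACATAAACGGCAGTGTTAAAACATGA
Fgfr2 probe 2: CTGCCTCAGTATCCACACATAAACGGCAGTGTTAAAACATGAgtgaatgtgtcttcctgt
The second pair lies in like stretches of Fgfr1, at chr8:26684061-26684120, and Fgfr4, at chr13:55269212-55269271, both on the plus strand. Capitals mark the 35 of 58 aligned bases that are identical between them. They are shown because these related sequences changed by different amounts. Mean log2 levels, explained below, ran from 0.67 in stem cells to 2.29 in day 1 myotubes for Fgfr1 probe 2. For Fgfr4 probe 2 they ran from -3.14 to 1.99 between the same groups.
Fgfr1 probe 2: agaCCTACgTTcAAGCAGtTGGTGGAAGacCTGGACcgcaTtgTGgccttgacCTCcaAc
Fgfr4 probe 2: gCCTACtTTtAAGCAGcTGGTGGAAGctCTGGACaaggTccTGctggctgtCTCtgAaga
The Met probe, at chr6:17503299-17503358 on the plus strand, is shown because it was printed on 10 spots of each array and is the sole measure of that gene.
Met: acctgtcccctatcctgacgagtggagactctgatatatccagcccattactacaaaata
The brightest probe of Fgfr1 lies at chr8:26685072-26685131, that of Fgfr3 at chr5:34079649-34079708 and that of Fgfr4 at chr13:55270033-55270092, all on the plus strand. The probe of Fgfrl1 lies at chr5:109135855-109135914 and that of Spry1 at chr3:37543403-37543462, on the plus strand, and that of Spry2 at chr14:106291845-106291904 on the minus strand. Fgfr3 probe 2 covers 235 genomic bases at chr5:34077856-34078090, more than its own 60. No annotation of build mm9 was used here, so exons and untranslated regions are not assigned.

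Levels are given as log2 of the signal over the 75th percentile of the same array, so a level of 0 equals that percentile, and levels of different probes are not compared. That percentile was 87.7 intensity units for proliferating replicate 1 and between 208 and 765 on the other arrays, and 39.1% to 60.1% of spots were well above background. Proliferating replicate 1 correlated at 0.909 and 0.886 across genes with the other proliferating samples, which correlated at 0.972 with each other. Results of the FGF receptors, the Sprouty genes and Met that turn on this replicate are therefore named. Single genes of the lists described later were not checked without it. All 5 stem cell markers were well above background in every stem cell sample. Of 5 myoblast markers 4 were so in every myoblast, myotube and quadriceps sample, while Myf5 was not above background in any group. All 6 adult fibre markers were above background in all myotube and quadriceps samples. Their presence alone separates the groups little, since 5 of 6 were so in all passage 0 and proliferating myoblast samples, and 3 of 6 in all stem cell samples. In bulk RNA, fewer cells of a type and less RNA per cell cannot be told apart.

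Across the lineage Fgfr4, Fgfrl1, Spry1, Spry2 and Met changed by large steps, and Fgfr1 and Fgfr3 by small or unstable ones. The overlapping probes of Fgfr2 read it differently, and Spry4 gave few readings that bear a comparison. Fgfr4 was high in myoblasts and early myotubes and low in stem cells and quadriceps. Fgfrl1 peaked in day 4 myotubes. Spry1 was high in all myotubes, Spry2 was highest in stem cells and lower in myoblasts and again in myotubes and quadriceps, and Met was highest in myoblasts.

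**Figure D1:**
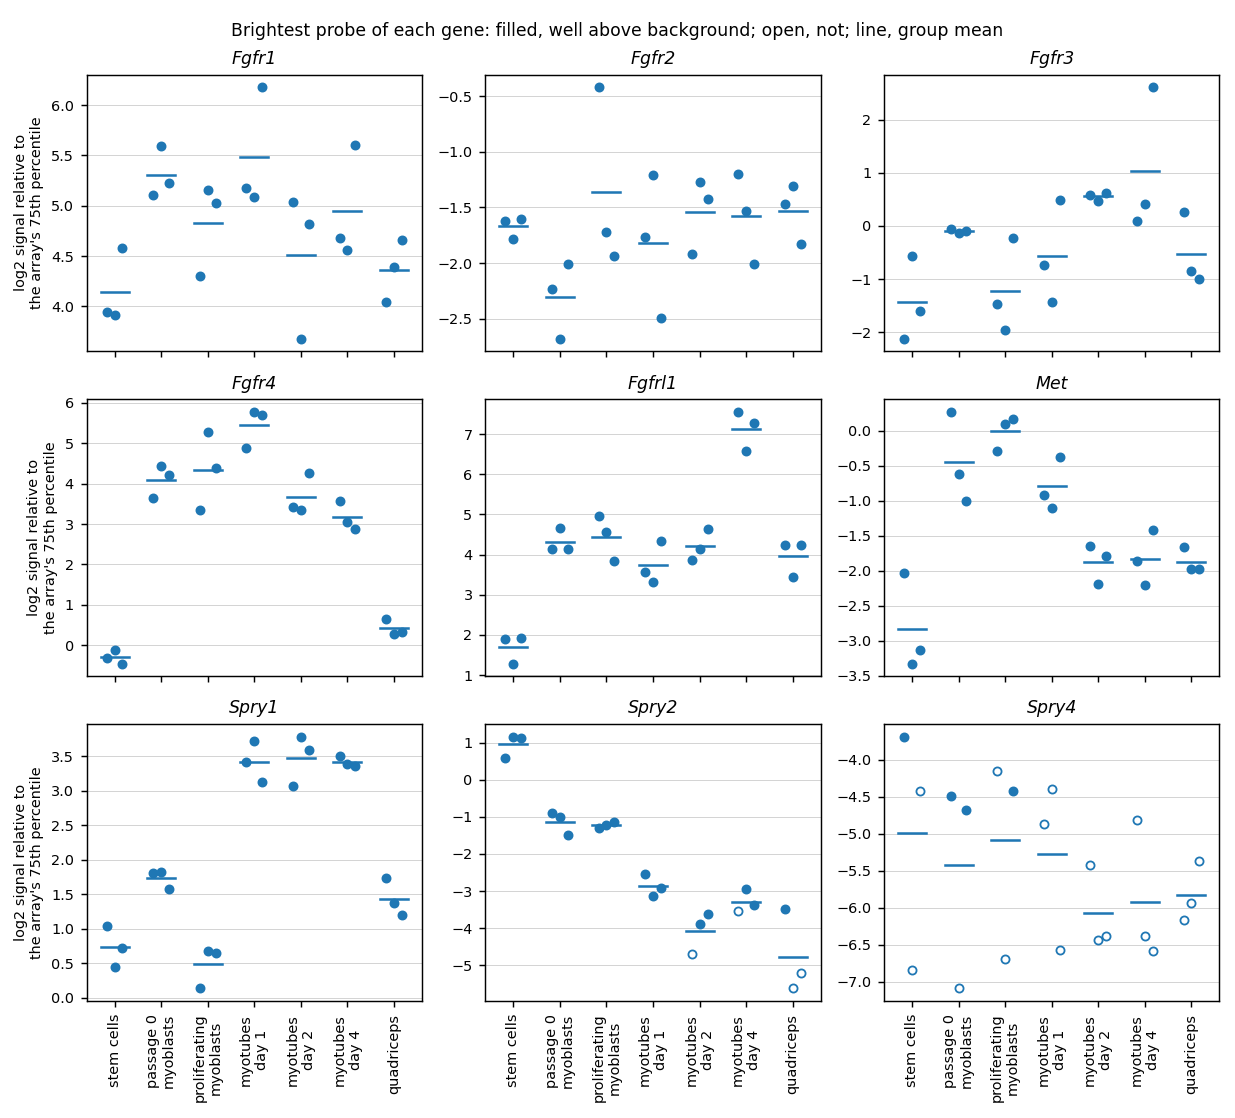
Level of the brightest probe of each of the 9 genes in every sample (y axis, log2 signal over the 75th percentile of the array, scaled per panel) by group in lineage order (x axis, 3 samples each). Filled points are well above background, open points are not, and lines are group means, so that the fall of Spry2 and the step of Spry1 between proliferating myoblasts and myotubes can be read beside the spread. The third stem cell point is the mean of both E14tg2 arrays.

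Fgfr4, a receptor abundant in developing and regenerating muscle, had levels of -0.31, -0.12 and -0.46 in stem cells. It had 3.64, 4.43 and 4.21 in passage 0 myoblasts, 3.34, 5.28 and 4.38 in proliferating myoblasts and 4.87, 5.78 and 5.71 in day 1 myotubes. It had 3.41, 3.36 and 4.26 on day 2, 3.56, 3.06 and 2.87 on day 4, and 0.66, 0.28 and 0.34 in quadriceps. In order of mean level, day 1 myotubes came first, then proliferating and passage 0 myoblasts and myotubes of days 2 and 4, each overlapping its neighbour in this order, while quadriceps lay below all of these and above stem cells without overlap.

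In passage 0 myoblasts Fgfr4 averaged 4.10 ± 0.41, against -0.29 ± 0.17 in stem cells (SD, n = 3 each), a log2 difference of 4.39 ± 0.44 (SE) (limma adjusted p = 2.42e-07). On single slides the difference was 3.76 to 4.90. Day 4 myotubes averaged 3.16 ± 0.36, against 5.45 ± 0.50 in day 1 myotubes, a fall by 2.29 on the log2 scale (SE 0.44, limma adjusted p = 0.00344). Quadriceps, at 0.42 ± 0.20, fell by 2.74 against day 4 myotubes (SE 0.44, limma adjusted p = 8.9e-05) and by 3.67 against passage 0 myoblasts (limma adjusted p = 2.08e-06). The second Fgfr4 probe followed the first at r = 0.987 over 21 samples, which share their arrays, and passed the test in the same 4 comparisons and directions, with differences of 3.74, -2.14, -2.07 and -2.82. Both fell short of the threshold between days 4 and 1 in a fit to cultures and myotubes alone without a block, at adjusted p of 0.0535 and 0.0509.

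Between myotubes and proliferating myoblasts the reading of Fgfr4 depended on single samples, since proliferating replicates 1 and 2 were 3.34 and 5.28, and on day 4 also on the processing. On day 1 the difference was 1.12 (limma adjusted p = 0.136), and without proliferating replicate 2 it was 1.59 (limma adjusted p = 0.0292). On day 2 it was -0.66 (limma adjusted p = 0.307), and without proliferating replicate 1 it was -1.15 (limma adjusted p = 0.0389). On day 4 it was -1.17 by probe 1 (limma adjusted p = 0.0567), which passed at -1.67 without proliferating replicate 1 (limma adjusted p = 0.00471). With all samples kept, probe 1 passed with quantile normalization, the authors' values and averaging of probes, at -1.36, -1.34 and -1.20 (limma adjusted p = 0.0141, 0.0109 and 0.0293). Probe 2 gave -1.23 on day 4 (limma adjusted p = 0.0448). That call was lost with the culture number as a block among cultured groups (limma adjusted p = 0.0979), and without proliferating replicate 2 or any single day 4 sample, at -0.77 to -1.31.

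Fgfr1, the receptor most widely expressed in mesenchymal cells, varied little. Its brightest probe read 3.95, 3.91 and 4.58 in stem cells, 5.10, 5.59 and 5.23 in passage 0 myoblasts, and 4.30, 5.16 and 5.03 in proliferating myoblasts. In myotubes it read 5.17, 5.09 and 6.18 on day 1, 5.03, 3.68 and 4.82 on day 2, and 4.68, 4.56 and 5.60 on day 4, and in quadriceps 4.05, 4.39 and 4.65. All 7 groups overlapped their neighbours in the order of means, which ran between 5.48 ± 0.61 in day 1 myotubes and 4.15 ± 0.37 in stem cells (SD, n = 3 each).

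The 1 difference of Fgfr1 that passed the test was a rise of 1.16 ± 0.43 (SE) in passage 0 myoblasts over stem cells (limma adjusted p = 0.0379). Probe 2, whose sequence stands above, rose by 1.32 ± 0.47 (limma adjusted p = 0.0316). The call on probe 1 held in 9 of 17 alternatives. It was lost without stem cell replicate 1 or 2, or without any 1 passage 0 sample, at differences of 1.02 to 1.26, and that on probe 2 without stem cell replicate 1 or 2 or passage 0 replicate 2 or 3, at 1.03 to 1.35. Quadriceps, at 4.36 ± 0.31, against 5.31 ± 0.25 in passage 0 myoblasts, differed by -0.94 without overlap of samples (limma adjusted p = 0.0788), and passed after normexp correction and with the authors' values. Probes 1 and 2 correlated at 0.970 over the 21 samples. Probe 3, at chr8:26685820-26685879, correlated with probe 1 at -0.459 and with the log2 of the array's 75th percentile at -0.60, and it passed the test in none of the 8 comparisons, with 0 differences at an unadjusted p under 0.05.

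Fgfr2, a receptor best known in epithelia, was read differently by its overlapping probes. Probe 1 was well above background on every array, with group means between -2.31 ± 0.34 in passage 0 myoblasts and -1.36 ± 0.82 in proliferating myoblasts (SD, n = 3 each). Its highest reading, -0.42, was on the dim array of proliferating replicate 1, and its levels correlated at -0.721 with the log2 of the array's 75th percentile. It passed no test, and in proliferating against passage 0 myoblasts its difference was 0.95 (limma adjusted p = 0.261). Probe 2, on 10 spots an array, was well above background in all 3 stem cell samples, at -3.58, -4.16 and -3.84, and in no sample of any other group. It was at least 1.98-fold lower in passage 0 myoblasts than in stem cells, with measured means of -6.23 ± 0.42 and -3.86 ± 0.29 and a limma adjusted p of 0.000524. The bound is set by the lowest signals called above background on the passage 0 arrays. The call was lost with normexp correction, at -0.65, and with the authors' values, at -0.37. The probes share 42 of their 60 bases and correlated at 0.526 over 21 samples.

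**Figure D2:**
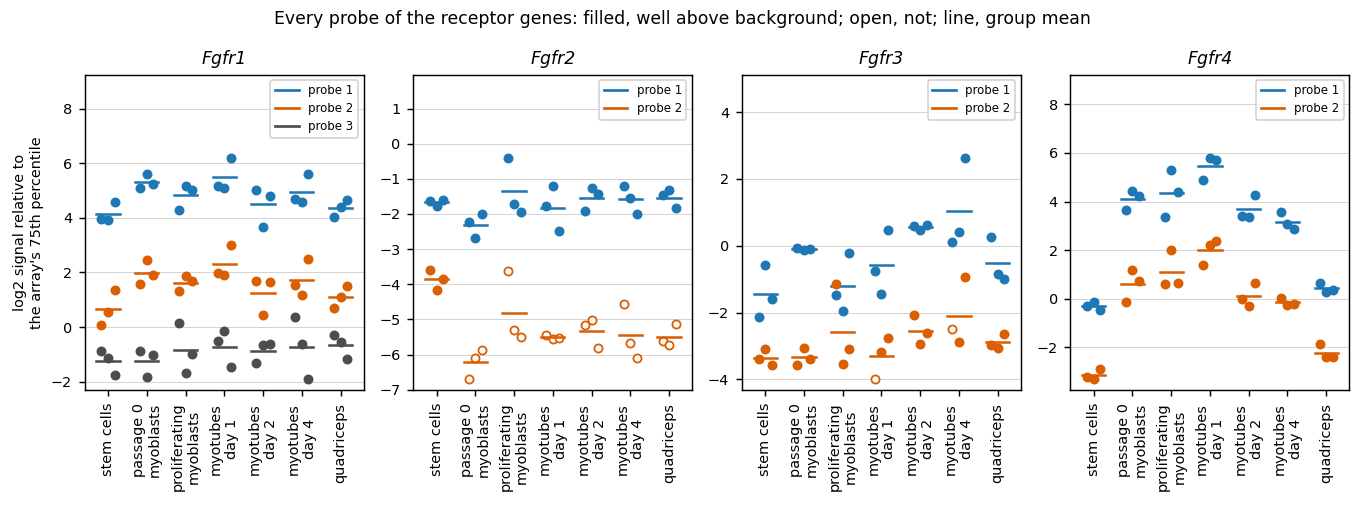
Levels of every probe of Fgfr1, Fgfr2, Fgfr3 and Fgfr4 by sample (y axis, log2 signal over the 75th percentile of the array) in the 7 groups in lineage order (x axis), with a colour for each probe. Filled points are well above background, open points are not, and lines are group means of 3 samples. The Fgfr4 probes run in parallel, Fgfr1 probe 3 does not follow the other 2, and Fgfr2 probe 2 is filled in stem cells alone.

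Fgfr3, a receptor known for its part in bone growth, read -2.12, -0.56 and -1.61 in stem cells, -0.06, -0.13 and -0.09 in passage 0 myoblasts and -1.48, -1.96 and -0.22 in proliferating myoblasts by its brightest probe. In myotubes it read -0.74, -1.43 and 0.48 on day 1, 0.59, 0.47 and 0.62 on day 2 and 0.10, 0.42 and 2.62 on day 4, and in quadriceps 0.27, -0.85 and -1.0. Passage 0 and day 2 samples were tight, whereas the other groups spread over more than 1 log2 unit. Day 2 myotubes rose by 1.78 ± 0.64 (SE) over proliferating myoblasts (limma adjusted p = 0.0485) and day 4 myotubes by 2.26 ± 0.64 (limma adjusted p = 0.0134).

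Both Fgfr3 calls were unstable. The call on day 2 held in 6 of 19 alternatives and was lost without any 1 day 2 sample or without proliferating replicate 1 or 2, at 1.41 to 1.82. Array weights gave a difference of 0.89 on day 2 and 0.87 on day 4, and the mean of both probes 0.91 on day 2, none of them called. On day 4 the call held in 14 of 19, and was lost without day 4 replicate 3, at 1.48 (limma adjusted p = 0.0819), or without proliferating replicate 2, at 1.89 (limma adjusted p = 0.0616). The second probe, which correlated with the first at 0.50, differed by 0.04 on day 2 (limma adjusted p = 0.972) and by 0.49 on day 4 (limma adjusted p = 0.601). On single slides the day 4 difference of probe 1 was 0.32 to 4.57. In quadriceps Fgfr3 was -1.57 against day 4 myotubes (limma adjusted p = 0.0673), and this passed without day 4 replicate 1, at -2.04, or without quadriceps replicate 1, at -1.97. With all samples kept it passed after normexp correction and with array weights, at -1.34 and -1.11 (limma adjusted p = 0.0486 and 0.00825). Passage 0 myoblasts against stem cells were not called for Fgfr3. That comparison passed with array weights, at 1.09, and with the compared groups alone, at 1.34 (limma adjusted p = 0.0279 and 0.0289).

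Fgfrl1, the receptor without a kinase domain, read 1.90, 1.29 and 1.93 in stem cells, 4.14, 4.67 and 4.15 in passage 0 myoblasts, and 4.96, 4.56 and 3.84 in proliferating myoblasts. In myotubes it read 3.56, 3.32 and 4.33 on day 1, 3.88, 4.15 and 4.64 on day 2, and 7.55, 6.58 and 7.28 on day 4, and in quadriceps 4.23, 3.44 and 4.24. The 3 day 4 samples lay above all others and the stem cells below all others, while the 5 groups between them overlapped. The day 4 peak followed 2 days on which the level did not pass the test against proliferating myoblasts, with differences of -0.72 on day 1 and -0.23 on day 2 (limma adjusted p = 0.338 and 0.75).

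Day 4 myotubes averaged 7.14 ± 0.50, against 4.45 ± 0.57 in proliferating myoblasts (SD, n = 3 each), a log2 difference of 2.69 ± 0.40 (SE) or 6.45-fold (limma adjusted p = 9.33e-05). Against day 1 myotubes, at 3.73 ± 0.53, the difference was 3.41 ± 0.40, or 10.6-fold (limma adjusted p = 0.000193), and on single slides 2.96 to 4.00. Quadriceps, at 3.97 ± 0.46, fell by 3.17 against day 4 myotubes (limma adjusted p = 8.42e-06) and differed by -0.35 from passage 0 myoblasts (limma adjusted p = 0.491). Passage 0 myoblasts, at 4.32 ± 0.30, rose by 2.61 over stem cells, at 1.71 ± 0.36 (limma adjusted p = 3.92e-05). No single sample left out ended any of these calls. The day 4 call against proliferating myoblasts was lost in a fit to the 2 compared groups alone (limma adjusted p = 0.0506).

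Met, the hepatocyte growth factor receptor, read -2.03, -3.33 and -3.14 in stem cells, 0.27, -0.62 and -1.01 in passage 0 myoblasts, and -0.29, 0.09 and 0.16 in proliferating myoblasts. In myotubes it read -0.92, -1.10 and -0.37 on day 1, -1.65, -2.19 and -1.79 on day 2, and -1.87, -2.20 and -1.42 on day 4, and in quadriceps -1.67, -1.98 and -1.98. Levels in day 2 and day 4 myotubes and in quadriceps overlapped, and all 3 groups lay below proliferating myoblasts. The repeat arrays of E14tg2 read -3.15 and -3.13.

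Passage 0 myoblasts averaged -0.45 ± 0.65, against -2.83 ± 0.70 in stem cells (SD, n = 3 each), so Met rose by 2.38 ± 0.40 (SE) on the log2 scale, or 5.20-fold (limma adjusted p = 9.29e-05). On single slides this was 1.02 to 3.59. Day 1 myotubes, at -0.80 ± 0.38, differed from proliferating myoblasts, at -0.01 ± 0.24, by -0.78 without overlap of samples (limma adjusted p = 0.278). Met then fell by 1.86 on day 2 (SE 0.40, limma adjusted p = 0.00193) and by 1.82 on day 4 (SE 0.40, limma adjusted p = 0.00233) against proliferating myoblasts. Both calls were lost in fits to the 2 compared groups alone (limma adjusted p = 0.0615 and 0.118). Quadriceps fell by 1.42 against passage 0 myoblasts (limma adjusted p = 0.00679), which was lost without passage 0 replicate 1, at -1.06 (limma adjusted p = 0.0542), and after normexp correction, at -0.92.

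Spry1 read 1.04, 0.45 and 0.72 in stem cells, 1.81, 1.82 and 1.58 in passage 0 myoblasts, and 0.13, 0.68 and 0.64 in proliferating myoblasts. In myotubes it read 3.42, 3.72 and 3.13 on day 1, 3.07, 3.78 and 3.59 on day 2, and 3.51, 3.39 and 3.36 on day 4, and in quadriceps 1.73, 1.38 and 1.20. All 9 myotube samples lay above all other samples, with the 3 days overlapping. Passage 0 myoblasts and quadriceps overlapped below them, and stem cells and proliferating myoblasts lay lowest and overlapped.

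Spry1 rose on the first day of differentiation and was called higher on all 3 days. The difference from proliferating myoblasts, at 0.49 ± 0.31, was 2.94 on day 1, 2.99 on day 2 and 2.93 on day 4 (SE 0.30 each, 7.67-, 7.95- and 7.63-fold), with limma adjusted p of 2.44e-05, 3.41e-06 and 4.54e-06. On single slides it was 2.44 to 3.59 on day 1 and 2.68 to 3.25 on day 4. The day 1 call was lost in a fit to the 2 compared groups alone (limma adjusted p = 0.125). Between days 4 and 1 the difference was -0.01 (limma adjusted p = 0.997), with an interval of -0.65 to 0.63. Quadriceps, at 1.44 ± 0.27, fell by 1.98 against day 4 myotubes, at 3.42 ± 0.08 (limma adjusted p = 6.32e-05), and differed from passage 0 myoblasts, at 1.74 ± 0.14, by -0.30 (limma adjusted p = 0.432).

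Spry1 was also 1.25 lower on the log2 scale in proliferating than in passage 0 myoblasts, with no overlap of samples and -1.13 to -1.45 on single slides, but a limma adjusted p of 0.0631. It passed after normexp correction and quantile normalization, with the authors' values, and without proliferating replicate 3, at -1.17 to -1.33. It also passed in the fit to means of probes, where its single probe kept a difference of -1.25 and the adjustment ran over genes. Fibroblast markers moved with this comparison, 3 of 6 being above background in all proliferating samples and 6 of 6 in all passage 0 samples. Their summed level was 0.26 to 2.72 in proliferating and 3.78 to 6.97 in passage 0 myoblasts, with Lum not above background in proliferating myoblasts. Smooth muscle and pericyte markers moved as well, 2 of 5 being above background in all proliferating samples, with a summed level of 0.68 to 1.03, against 4 of 5 and 3.03 to 3.17 in passage 0 myoblasts. Of these Myh11, Cnn1 and Pdgfrb were at background in proliferating and Myh11 in passage 0 myoblasts, and the part of both lists in the result was not tested. In passage 0 myoblasts against stem cells Spry1 was higher by 1.00 ± 0.30 (SE, limma adjusted p = 0.0135), just under the 2-fold threshold, and it passed without stem cell replicate 1, at 1.15, or passage 0 replicate 3, at 1.08. It also passed with quantile normalization, slide as a block, array weights or the E14tg2 repeat array left out, at 1.03 to 1.08.

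Spry2 read 0.60, 1.15 and 1.12 in stem cells, -0.90, -1.0 and -1.49 in passage 0 myoblasts, and -1.29, -1.21 and -1.14 in proliferating myoblasts. In myotubes it read -2.53, -3.14 and -2.91 on day 1, -4.71, -3.89 and -3.62 on day 2, and -3.53, -2.95 and -3.37 on day 4, and in quadriceps -3.49, -5.62 and -5.19. Replicate 1 of day 2, replicate 1 of day 4 and quadriceps replicates 2 and 3 were not well above background, so their values and the differences that use them are uncertain at the low end. Stem cells lay above both myoblast groups, which overlapped, and all myotube and quadriceps samples lay below these. Among myotubes the day 4 samples lay above the day 2 samples without overlap, a difference that was not tested.

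Spry2 fell by 2.09 in passage 0 myoblasts, at -1.13 ± 0.32, against stem cells, at 0.96 ± 0.31 (SD, n = 3 each), with an SE of 0.45 and a limma adjusted p of 0.00105. Against proliferating myoblasts, at -1.21 ± 0.08, it fell by 1.65 on day 1 (limma adjusted p = 0.0293), 2.86 on day 2 (limma adjusted p = 0.000146) and 2.07 on day 4 (limma adjusted p = 0.00223). Quadriceps fell by 3.64 against passage 0 myoblasts, or 12.4-fold (limma adjusted p = 3.33e-06), and the difference was -4.72 to -2.00 on single slides. The day 1 call held in 9 of 19 alternatives, and was lost without proliferating replicate 2 or 3 or day 1 replicate 2 or 3, at adjusted p of 0.058 to 0.105. The authors' values gave smaller differences of -0.78 on day 1 and -0.98 on day 4, both under 2-fold. The day 4 call was also lost with array weights and in a fit to the 2 compared groups alone (limma adjusted p = 0.0632 and 0.0737).

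Spry1 and Spry2 thus passed the test in opposite directions on each of the 3 days against proliferating myoblasts, while in quadriceps against passage 0 myoblasts Spry2 was called and Spry1 was not. The difference between both genes' changes was not tested. Spry4, on chromosome 18, could not be followed. It was well above background in stem cell replicate 1, passage 0 replicates 1 and 3 and proliferating replicate 3, at -3.69, -4.49, -4.68 and -4.42, and was tested in no comparison. The 2 arrays of E14tg2 read -6.67 and -2.18 for it, a gap of 4.49, against a gap of at most 1.06 for any other probe of the 9 genes.

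**Figure D3:**
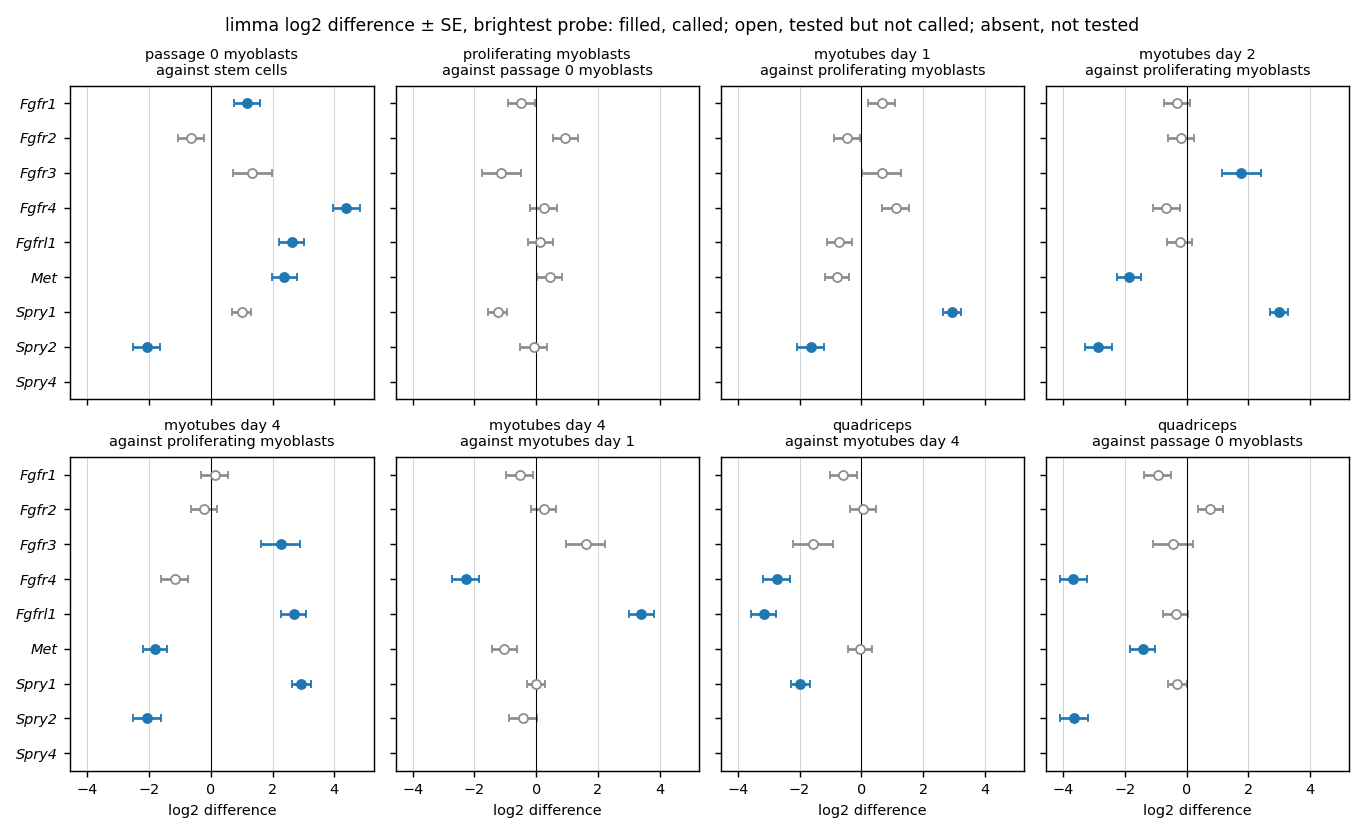
limma log2 differences (x axis, with SE bars) of the brightest probe of each gene (y axis) in the 8 comparisons, each named above its panel with the group in the numerator first. Filled points passed an adjusted p of 0.05 and a fold of 2, open points were tested and did not, and a missing point was not tested. Spry1 is right and Spry2 left of 0 in all 3 panels that set myotubes against proliferating myoblasts, and Fgfrl1 stands out on day 4.

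Read comparison by comparison, 5 of 8 tested genes were called in passage 0 myoblasts against stem cells, 4 higher (Fgfr1, Fgfr4, Fgfrl1 and Met) and 1 lower (Spry2), where 42.2% of all tested genes were called (21.2% higher and 21.1% lower). In proliferating against passage 0 myoblasts 0 of 8 were called by limma, where 1.16% of genes were (0.286% higher and 0.871% lower), and 2 of 8, Spry1 and Fgfr2, had an unadjusted p under 0.05. In myotubes against proliferating myoblasts 1 rose and 1 fell on day 1 (Spry1 and Spry2), where 10.6% of genes were called (6.98% higher and 3.60% lower), and 2 rose and 2 fell on day 2 (Fgfr3 and Spry1, Spry2 and Met), where 29.3% were (17.8% higher and 11.5% lower). On day 4 the count was 3 higher and 2 lower, with Fgfrl1 added to the genes that rose, where 28.6% of genes were called (16.9% higher and 11.7% lower). In day 4 against day 1 myotubes Fgfrl1 rose and Fgfr4 fell, where 9.54% were called (4.57% higher and 4.97% lower). In quadriceps 3 of 7 fell against day 4 myotubes (Fgfr4, Fgfrl1 and Spry1) and 3 of 8 against passage 0 myoblasts (Fgfr4, Spry2 and Met), where 35.1% (16.1% higher, the others lower) and 48.9% (23.3% higher and 25.6% lower) of genes were called. In the quadriceps comparisons the share of the 9 genes called is thus near that of all genes, and comparisons that use the same group share its samples.

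Quadriceps tissue held markers of cells other than muscle fibres. All 4 adipocyte markers were above background in every quadriceps sample, with a summed level of 6.26 to 7.26, against 0 of 4 and -3.23 to -2.70 in day 4 myotubes, where Adipoq, Cidec and Fabp4 were at background. The 6 fibroblast markers summed to 8.23 to 9.61 in quadriceps, with 6 of 6 above background in every sample, and to 0.77 to 1.94 in day 4 myotubes, with 3 of 6 and with Pdgfra and Lum at background. Endothelial markers, 6 of 6 in every quadriceps sample, summed to 3.83 to 4.48, against 1 of 6 and 2.28 to 3.99 in day 4 myotubes with Cdh5, Tie1 and Emcn at background. In quadriceps Spry2 and Met were called only against passage 0 myoblasts. There adipocyte, fibroblast and endothelial markers summed to -0.67 to -0.18, 3.78 to 6.97 and 2.39 to 2.47. In every passage 0 sample 1 of 4, 6 of 6 and 3 of 6 were above background. The part of these markers in the differences of Fgfr4, Fgfrl1, Spry1, Spry2 and Met was not tested.

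Genes around the receptors were described from 5 lists, which cover FGF ligands, FGF coreceptors and partners, feedback inhibitors and targets of ERK, the HGF and Met axis, and the Ras and MAP kinase core. Counts from each list are to be read beside the shares of all genes given above for the same comparison. Calls of single list genes were not checked under the alternatives, so which of them turn on proliferating replicate 1 is not known. Of 20 ERK feedback genes on the array, which leave out the 9 genes above, 0 rose and 6 of 17 tested fell on day 1 against proliferating myoblasts, 0 rose and 8 of 17 fell on day 2, and 1 rose and 6 of 16 fell on day 4. Their median differences were -1.18, -1.39 and -0.58, beside 0.06, 0.20 and 0.09 over all genes tested. Of all genes tested, 6.98% were called higher and 3.60% lower on day 1, 17.8% and 11.5% on day 2, and 16.9% and 11.7% on day 4. Etv4, an ETS transcription factor made in response to FGF signalling, averaged 1.64 ± 0.48 on day 1, -0.11 ± 0.98 on day 2 and 1.35 ± 0.46 on day 4, against 5.11 ± 0.06 in proliferating myoblasts. Its differences were -3.47, -5.22 and -3.76 (limma adjusted p = 0.000896, 4.73e-06 and 9.8e-05). Ccnd1, the cyclin that couples growth signals to the cell cycle, fell by 4.37 on day 2 and by 3.75 on day 4 (limma adjusted p = 4.32e-06 and 1.75e-05), and Myc, a growth-related transcription factor, by 1.99 on day 1 (limma adjusted p = 0.0456). Apart from Egr1 on day 4, the called genes of the list fell on these days, as Spry2 did, while Spry1 rose.

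In day 4 against day 1 myotubes 3 of 17 ERK feedback genes rose and 1 fell, where 4.57% of all genes were called higher and 4.97% lower. Egr1, an immediate early gene, averaged 3.98 ± 0.65 on day 4, against 1.12 ± 0.68 on day 1, a rise of 2.86 (limma adjusted p = 0.00317), and Fos, another, rose by 2.59 (limma adjusted p = 0.0328). Quadriceps against passage 0 myoblasts had 1 of 19 higher and 14 of 19 lower, beside 23.3% of all tested genes called higher and 25.6% lower. Dusp4, a MAP kinase phosphatase, averaged -3.10 ± 0.85 in quadriceps, with 2 of 3 samples above background, and 2.49 ± 0.31 in passage 0 myoblasts (limma adjusted p = 1.85e-08). Dusp9, another such phosphatase, was not well above background in quadriceps and at least 14.7-fold lower there, with means of -5.15 ± 0.55 and 0.32 ± 0.66 in passage 0 myoblasts (limma adjusted p = 1.77e-07). Against day 4 myotubes 1 of 17 was higher and 8 lower in quadriceps. In passage 0 myoblasts against stem cells 6 of 19 rose, among them Dusp2 (5.20, limma adjusted p = 0.00265) and Phlda1 (4.15, limma adjusted p = 7.82e-07), and 3 fell. Of all genes 21.2% were called higher and 21.1% lower there. In proliferating against passage 0 myoblasts Fos fell by 3.18 (limma adjusted p = 0.0409), as the 1 call in the 5 lists.

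**Figure D4:**
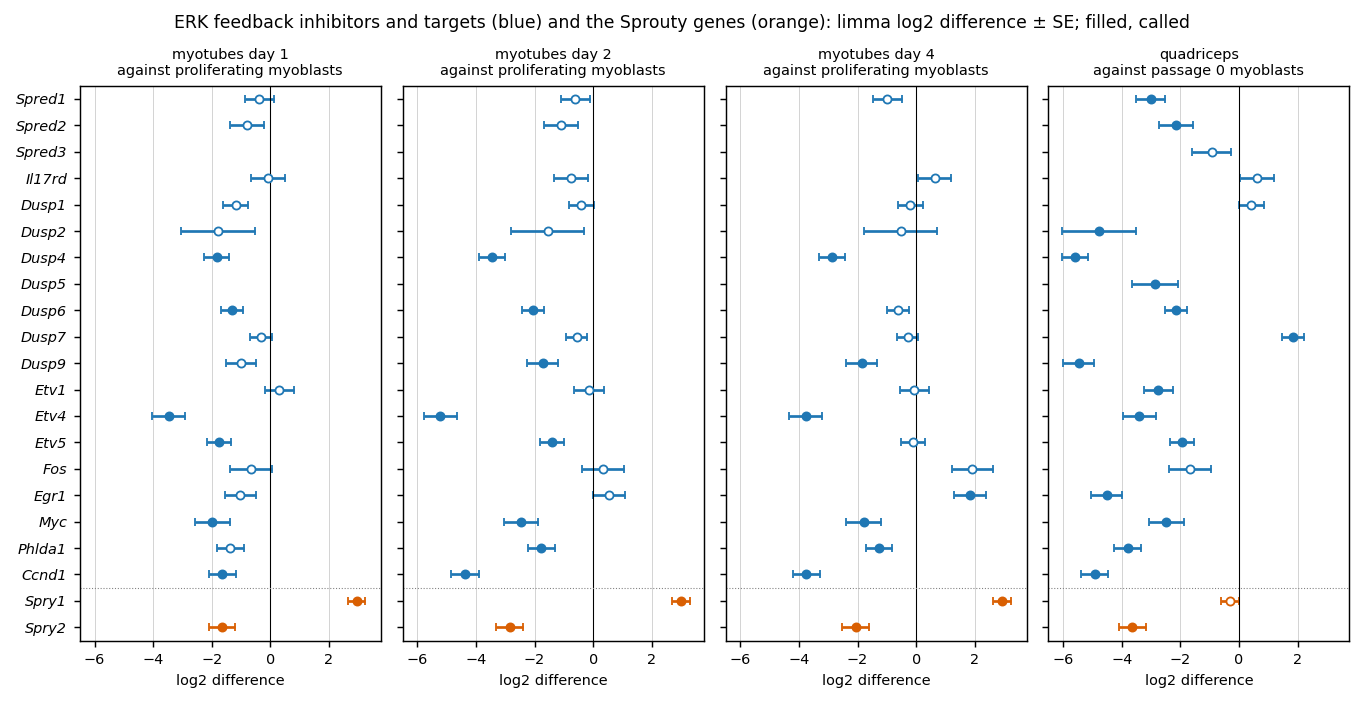
limma log2 differences (x axis, with SE bars) of ERK feedback inhibitors and targets (blue) and of Spry1 and Spry2 (orange) in myotubes of days 1, 2 and 4 against proliferating myoblasts, and in quadriceps against passage 0 myoblasts. Filled points passed an adjusted p of 0.05 and a fold of 2, and genes with no point were not tested. In the myotube panels most filled blue points lie left of 0, as does Spry2, while Spry1 lies right of it.

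Among 22 FGF ligand genes, those that passed in myotubes against proliferating myoblasts all rose, 2 of 13 tested on day 1, 3 of 13 on day 2 and 3 of 12 on day 4, where 6.98%, 17.8% and 16.9% of all genes were called higher. Fgf21, which in adults acts as a metabolic hormone, averaged 3.32 ± 1.14 on day 1, 5.92 ± 1.10 on day 2 and 4.31 ± 2.01 on day 4, against 0.50 ± 0.92 in proliferating myoblasts (limma adjusted p = 0.034, 7.12e-05 and 0.00155). Fgf9 averaged 1.53 ± 0.22, 1.12 ± 0.28 and 1.20 ± 0.50 on these days, against -2.14 ± 1.16 (limma adjusted p = 0.000554, 0.000331 and 0.000267). Fgf21 was not well above background in quadriceps and was at least 233-fold lower there than in day 4 myotubes, at measured means of -5.77 ± 0.43 and 4.31 ± 2.01 (limma adjusted p = 3.79e-08). Fgf1, a ligand of all FGF receptors, was at 1.49 ± 1.06 in day 4 myotubes, against -1.82 ± 0.79 in day 1 myotubes (limma adjusted p = 0.00498), and at 3.47 ± 1.04 in quadriceps, against -0.70 ± 0.57 in passage 0 myoblasts (limma adjusted p = 5.22e-05). Quadriceps had 3 of 13 ligands higher and 3 lower than day 4 myotubes, and 3 of 14 higher and 1 lower than passage 0 myoblasts. Fgf4, a ligand of pluripotent cells, was not well above background in passage 0 myoblasts and at least 1761-fold lower there than in stem cells (limma adjusted p = 4.34e-10), where measured means were -6.59 ± 0.18 and 5.93 ± 0.04, and 4 of 18 ligands rose and 4 fell in that comparison.

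Of the 21 coreceptor and partner genes 2 of 15 rose and 1 fell on day 1 against proliferating myoblasts, 4 of 14 rose and 3 fell on day 2, and 4 of 12 rose and 1 fell on day 4, where 10.6%, 29.3% and 28.6% of all genes were called in either direction. Flrt1, a membrane protein that binds FGF receptors, rose by 3.97, 3.52 and 2.21 on these days (limma adjusted p = 0.000497, 0.0003 and 0.0107). Sdc3, a syndecan that carries heparan sulfate, fell by 2.80 on day 2 (limma adjusted p = 0.000302). It averaged 3.94 ± 0.45 in passage 0 myoblasts, against -2.79 ± 0.81 in stem cells (limma adjusted p = 4.34e-09), and -0.39 ± 0.50 in quadriceps, against that passage 0 level (limma adjusted p = 9.37e-07). Coreceptors called in quadriceps were 1 higher and 6 lower of 13 against day 4 myotubes, and 4 higher and 6 lower of 17 against passage 0 myoblasts, where 35.1% and 48.9% of all genes were called. In passage 0 myoblasts against stem cells 6 of 19 rose and 6 fell. In day 4 against day 1 myotubes limma called 0 of 15.

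Of the 15 genes of the HGF and Met axis none was called higher in any comparison of myotubes, and 1 of 11, 3 of 8 and 4 of 8 tested fell on days 1, 2 and 4 against proliferating myoblasts, where 3.60%, 11.5% and 11.7% of all genes were called lower. Cd44, a hyaluronan receptor that can act as a partner of Met, fell by 2.93 on day 2 and by 2.60 on day 4 (limma adjusted p = 0.000712 and 0.00192). Its level was 4.16 ± 0.03 in passage 0 myoblasts, against -3.42 ± 1.08 in stem cells (limma adjusted p = 5.8e-09). Plaur, the urokinase receptor, fell by 2.35 on day 4 (limma adjusted p = 0.0165) and by 6.68 in quadriceps against passage 0 myoblasts (limma adjusted p = 3.99e-07), where 3 of 13 genes of the axis rose and 7 fell. In passage 0 myoblasts against stem cells 5 of 13 rose and 5 fell, and in quadriceps against day 4 myotubes 2 of 10 rose and 3 fell. Day 4 against day 1 myotubes had 1 of 11 lower, Plau, the urokinase itself (-1.58, limma adjusted p = 0.0418).

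The last list was the Ras and MAP kinase core of 20 genes. Against proliferating myoblasts 1 of 19 rose and 0 fell on day 1, 5 of 19 rose and 2 fell on day 2, and 3 of 18 rose and 1 fell on day 4. Of all genes 6.98% rose and 3.60% fell on day 1, 17.8% and 11.5% on day 2, and 16.9% and 11.7% on day 4. Rps6ka3, a kinase downstream of ERK, rose by 1.22, 1.74 and 1.55 on these days (limma adjusted p = 0.0424, 0.0015 and 0.0035). Rasa1, which switches Ras off, fell by 1.74 on day 2 and 2.31 on day 4 (limma adjusted p = 0.0497 and 0.0106). It was at 2.78 ± 0.61 in passage 0 myoblasts, against -1.06 ± 0.10 in stem cells (limma adjusted p = 7.4e-05), where 4 of 20 rose and 1 fell. In quadriceps 2 of 19 rose and 2 fell against day 4 myotubes, and 3 of 20 rose and 5 fell against passage 0 myoblasts. In day 4 against day 1 myotubes limma called 0 of 19.

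Genes with the most similar pattern were ranked by Pearson r of level over the 21 samples among 15851 genes, as a description, since samples of a group share their cell type. Spry2 was followed most closely by Gls2, Xylb and Dna2, at r of 0.972, 0.967 and 0.967, and Fgfr4 by Klhl5, Ttpal and Slc25a24, at 0.958, 0.956 and 0.953. Spry1 was nearest to Dgkd, Dlgap4 and Vps53, at 0.947, 0.939 and 0.935, and Met to Gpnmb, Arhgef40 and Sdc3, at 0.934, 0.923 and 0.915. Fgfrl1 was nearest to Atp6v1g2, Ppp1r13b and Stom, at 0.897, 0.890 and 0.889. For Fgfr1, Mboat1 and Med12 were among the nearest genes, at 0.804 and 0.796, and for Fgfr3 the nearest, 4930578M01Rik, Clstn2 and Tnfrsf25, reached 0.807, 0.797 and 0.779. Fgfr2 probe 1 was nearest to Nova2, Teddm2 and Sf3a2, at 0.935, 0.926 and 0.906, beside its correlation with the array's 75th percentile given above.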

How the data were processed

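RNA of 23 samples was labelled with Cy3 and hybridised to 1-colour Agilent mouse arrays, per the labels' protocols. Per the file headers, Feature Extraction 10.7.3.1 gave every spot a processed intensity and placed probes on build mm9. The authors also deposited a log2 matrix in which each column's median is 6.72. Their scale followed the scanner values (r from 0.954 to 0.991), but their normalization and centring are not stated. The flags for spots above background or out of line, a score of 0 or 1 in the deposited files, were used as they stand.

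From the processed signal, log2 values were taken, the 75th percentile of spots that are not controls was subtracted per array, spots called out of line were left out, and spots of a probe were averaged. limma 3.58.1 (R 4.3.3) was fitted to 55681 probes in 21 samples of 7 groups, with no covariate and 14 residual degrees of freedom, and checked on simulated data. Testing was limited to probes well above background in all samples of either group. A call needs a fold of at least 2 and a p under 0.05 after Benjamini-Hochberg adjustment over all probes tested. A gene stands for its brightest probe over all arrays. If a whole group lay at background, its fold is given as a bound, taken against the higher of the probe's own signal and the lowest signal called above background on each array.

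Each of the 3 slides, scanned on 1 day, held 1 sample of each group once the repeat array of E14tg2 is left out. Same-numbered samples deviated together, by r across 15859 genes above 0.1 for every culture number, between proliferating myoblasts and day 2 (0.239 to 0.334) or day 4 (0.127 to 0.549). So did those of days 1 and 2 (0.154 to 0.408), days 1 and 4 (0.125 to 0.497) and days 2 and 4 (0.116 to 0.374). Proliferating myoblasts and day 1 did not, at 0.032 to 0.142. The pairing comes from the culture numbers in the titles. Same-numbered samples of days 1 and 4 also lay on the same slide, so culture number and slide cannot be told apart there. Replicates 1 of proliferating myoblasts and day 4, which gave the 0.549, were the dimmest arrays, with 75th percentiles of 87.7 and 208. Stem cells and quadriceps, which share slides but no culture number, gave 0.081 to 0.210 by replicate number. Alternatives were quantile normalization, the authors' values, normexp background correction (offset 50), other filters on dim probes, slide or replicate number as a block, array weights, the compared groups alone, means of probes, the E14tg2 repeat or NOD muscle, and each sample left out. The 9 genes, the lists and the naming rule (up to 2 called genes of each list with the largest difference in each comparison, and the 3 nearest genes by correlation) were chosen with earlier results of these data known. A gene with a pattern like that of Fgfr1 and a list of cell type markers are not reported here.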

Additional observations from a re-analysis of the deposited data

Results flagged for a closer look

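The single NOD/ShiLtj skeletal muscle sample was used in no main comparison, only in an alternative that added it to quadriceps. It gave readings well above background that lay just above all 3 quadriceps samples for 2 of the 14 probes. Met was at -1.59 there, against a highest quadriceps level of -1.67. Fgfr1 probe 3, which did not follow the other Fgfr1 probes, was at -0.219, against a highest quadriceps level of -0.285. Fgfr4 probe 1 departed further and the other way, at -0.267, against a lowest quadriceps level of 0.277. Fgfr4 probe 2 did not share this departure, at -2.08 within the quadriceps range of -2.42 to -1.85. Strain and muscle differ from the quadriceps samples and there is 1 sample, so no test was made.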

How the results depend on the processing

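Under the alternatives 1692 values of probes of the 9 genes were recomputed. Of these 1600 kept their side of the threshold, 82 of them with a change of sign and no call in either fit. A further 63 lost the call, 29 gained it and 0 called values reversed. Calls of Fgfr4 and Fgfrl1 against stem cells, and of Spry1 on days 2 and 4, held under every alternative run. Leaving out 1 sample at a time, calls among the 9 genes numbered 4 to 5 in passage 0 myoblasts against stem cells, 0 to 1 in proliferating against passage 0 myoblasts, 1 to 2, 3 to 4 and 4 to 6 on days 1, 2 and 4 against proliferating myoblasts, 2 in day 4 against day 1 myotubes, and in quadriceps 3 to 5 against day 4 myotubes and 2 to 3 against passage 0 myoblasts. Calls among all genes then numbered, in the same order, 5784 to 6092, 41 to 353, 646 to 1509, 3059 to 4077, 2837 to 4109, 582 to 1427, 3947 to 4631 and 6423 to 6830.

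In proliferating against passage 0 myoblasts 162 genes were called. The count was 249 with normexp correction, 430 with quantile normalization, 458 with the authors' values, 248 with means of probes, 39 when both groups had to be above background, 36 with array weights and 0 by limma on these groups alone, where 806 had an unadjusted p under 0.05. Of the 9 genes 1 was called under normexp, quantile, the authors' values and means of probes. With normexp 94 genes were higher and 155 lower, against 40 and 122 as reported. Requiring both groups above background gave 4236 calls, in place of 6474, in passage 0 myoblasts against stem cells, 2987, in place of 4644, in quadriceps against day 4 myotubes, and 2 of the 9 genes on day 2, since fewer probes are tested.

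Fits to the compared groups alone, which leave 4 residual degrees of freedom, called 0 genes on day 1 (1512 at an unadjusted p under 0.05), 1052 on day 2 and 670 on day 4 against proliferating myoblasts, in place of 1408, 3764 and 3549, and 365, in place of 1267, in day 4 against day 1 myotubes. Of the 9 genes 0, 2 and 1 were then called on days 1, 2 and 4, and on day 1 2 of them had an unadjusted p under 0.05. Array weights gave 422 calls on day 1 and 3218 between days 4 and 1, with 1 of the 9 genes on day 1, 3 on day 4 and 4 between days 4 and 1. On day 1 the 9 genes also numbered 1 with quantile normalization, the authors' values and no filter on dim probes. The cause was not tested.

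With the culture number as a replicate block among proliferating myoblasts and myotubes, an alternative chosen after the data were seen, 846 genes were called on day 1 and 579 between days 4 and 1, against 554 and 329 in the same fit with no replicate block, where 1 of the 9 genes was called in each. Fgfr4 probe 2 on day 4 was called in neither of these (limma adjusted p = 0.0979 with the block and 0.116 without). The calls of Fgfr3 on days 2 and 4, of Spry2 on day 1 and of both Fgfr4 probes between days 4 and 1 were made with the block and not without it (limma adjusted p without it of 0.126, 0.0534, 0.051, 0.0535 and 0.0509). Median differences over all genes moved by more than 0.1 with scaling in passage 0 myoblasts against stem cells (-0.15, or -0.03 with the authors' values), in proliferating against passage 0 myoblasts (0.02, or -0.13 with quantile normalization) and in quadriceps against passage 0 myoblasts (-0.03, or 0.10 with normexp). Among the uncalled values that changed sign the largest reported difference was 0.717 in size, for Fgfr3 probe 2 on day 1. The small number of arrays limits precision, and signals near background limit Spry2 in myotubes and quadriceps, Fgfr2 probe 2 and Spry4.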
